A study of Rattus norvegicus with 9 samples.

Results

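The baseline transcriptome of the control rat left ventricle was described from 3 of the 9 arrays of the series, those titled control replicates 1, 2 and 3. All genes with a single symbol in the platform annotation were ranked by their mean log2 signal over these 3 arrays, which gave 21013 genes. The control animals were male Wistar rats of the same age weighing 250 to 290 g, kept under 12 h of light and 12 h of dark. Under pentobarbital anaesthesia and ventilation the chest was opened, a thread was placed around the anterior descending coronary branch without closing it, and the chest was shut after 60 min. The labels' protocol calls this group Sham, so it stands for operated heart without occlusion and not for unoperated heart. The other 6 arrays, from rats with an occluded artery, were not used here. The sources disagree on the array, a rat gene chip (Rat Gene 2.0 ST) in the methods and a human one in the series record, and the deposited names are those of rat genes. The sources do not say when after surgery the tissue for RNA was taken, or that the 3 arrays came from separate rats, so the spread given below is that between arrays and may be technical. With 3 arrays and no contrast, no test was run, and every value is a description.

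The left ventricle pumps blood into the aorta, and most of its mass is cardiomyocytes, although many of its cells are endothelial cells, fibroblasts, pericytes and macrophages. A beat starts when calcium enters through L-type channels, opens ryanodine receptors in the sarcoplasmic reticulum, binds troponin on the thin filament and lets myosin pull on actin, and it ends when the SERCA pump returns the calcium to the store. The ATP for this cycle comes mainly from mitochondrial oxidation of fatty acids. In bulk tissue a low signal of a cell type's genes can mean fewer such cells or less RNA per cell, and these cannot be told apart.

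Gene signals had a median of 4.83, with the 5th and 95th percentiles at 3.76 and 8.75, and the values ran up to 19.93. That top value equals 999966 on the linear scale, beyond what a scanner of 16 bits writes, and none of the sources says how it arose. A background limit of 5.08 was set at the 95th percentile of 1237 olfactory, vomeronasal and taste receptor genes, which the heart is not known to use widely. By this limit 8592 genes, 40.9% of all, were above background on all 3 arrays, as were 18 of the receptor genes. On 2286 genes (10.9%) the 3 arrays held exactly the same value, and this share was 22.4% among the 134 genes with a mean of 14 or more. An SD of 0 on such genes is no measure of precision, and they were left out of every spread. A further 4051 genes held the same value on 2 of the 3 arrays, and these stayed in the spreads, where they can lower the SD. Across genes the arrays correlated with Pearson's r from 0.987 to 0.990, a description over genes that are not independent. Replicate 1 stood apart in the mitochondrial probe sets, as described at the end, where values are also given without it.

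The brightest signals in control left ventricle included genes of the contractile apparatus, the calcium store and the mitochondrial ATP machinery. Genes that most cells use, and copies of such genes, made up much of the rest. Probe sets differ in how strongly they bind their targets, so the order of signals is not an order of transcript amounts, here and in the families below. 5 genes held the highest value of 19.93 on each array and have no order among themselves. They were Cox6a2, the heart and skeletal muscle form of a cytochrome c oxidase subunit, Actc1, the cardiac alpha-actin of the thin filament, Mb, the oxygen-binding myoglobin of muscle, Snord33, a small nucleolar RNA that guides methylation of ribosomal RNA, and Bc1, a rodent noncoding RNA known from neurons. Of the 30 brightest genes 22 were protein-coding in RefSeq, Snord33 and Bc1 were noncoding, and the rest were annotated as pseudogenes.

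Within these 30, the genes of contraction and calcium handling came high and close together. Atp2a2, the SERCA pump of cardiac muscle, read 19.69 on each array. Actn2, the alpha-actinin of the Z-disc, read 19.47 on each array, and Casq2, the calcium buffer inside the sarcoplasmic reticulum, read 18.85 on each. Tnnc1, the calcium sensor of the thin filament, gave 19.50, 18.75 and 18.85 on replicates 1, 2 and 3, a mean of 19.03 ± 0.41 (SD, n = 3, as for every ± below), with replicate 1 above the others. Tnnt2, which ties the troponin complex to tropomyosin, gave 18.27, 18.29 and 18.20 (18.25 ± 0.04), so its arrays lay close together. Ankrd1, a stretch-responsive protein bound to titin, gave 19.74, 19.79 and 19.09 (19.54 ± 0.39), lowest on replicate 3.

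Energy genes made up a further group of the 30. Atp5f1b, the catalytic beta subunit of ATP synthase, read 18.63 on each array, and Atp5mk, a small subunit of the same enzyme, read 17.98 on each. Gapdh, the glycolytic enzyme often used as a reference gene, read 19.35 on each array, so these arrays hold no measure of its spread. Genes of translation and general cell upkeep were also present. Eef1a1, which carries aminoacyl-tRNA to the ribosome, gave 19.93, 19.61 and 18.70 (19.41 ± 0.64), with replicate 1 high and replicate 3 low. Tmsb4x, an actin monomer-binding peptide, gave 19.93, 19.93 and 19.35 (19.74 ± 0.34). Tpt1, the translationally controlled tumour protein, read 19.43 on each array, and Ybx1, an RNA-binding protein, read 19.17 on each.

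The remaining bright genes were copies of widely used genes, whose near-identical sequences make their own signal uncertain. They were Ubbl2, Atp5mc1l1, LOC100364335, Rpl21-ps1, Rpl31-ps11, Eif1-ps8, Rpl31-ps5, Rpl31l15, Eif4g2l1, Hsc70-ps2, Cycsl1 and Ybx1-ps20, with means from 17.55 to 19.03. The 3 copies of Rpl31, a protein of the large ribosomal subunit, differed most between arrays, since Rpl31-ps11 gave 19.30, 18.06 and 17.37 (18.24 ± 0.98). Replicate 1 was the highest for all 3 of these copies. Genes annotated as pseudogenes or named as such made up 22 of the 100 brightest genes and 4.27% of all genes. Of the 30 brightest, 18 held the same value on all arrays. 24 genes were among the 30 brightest of every array, and 90 were among the 100 brightest of every array.

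**Figure D1:**
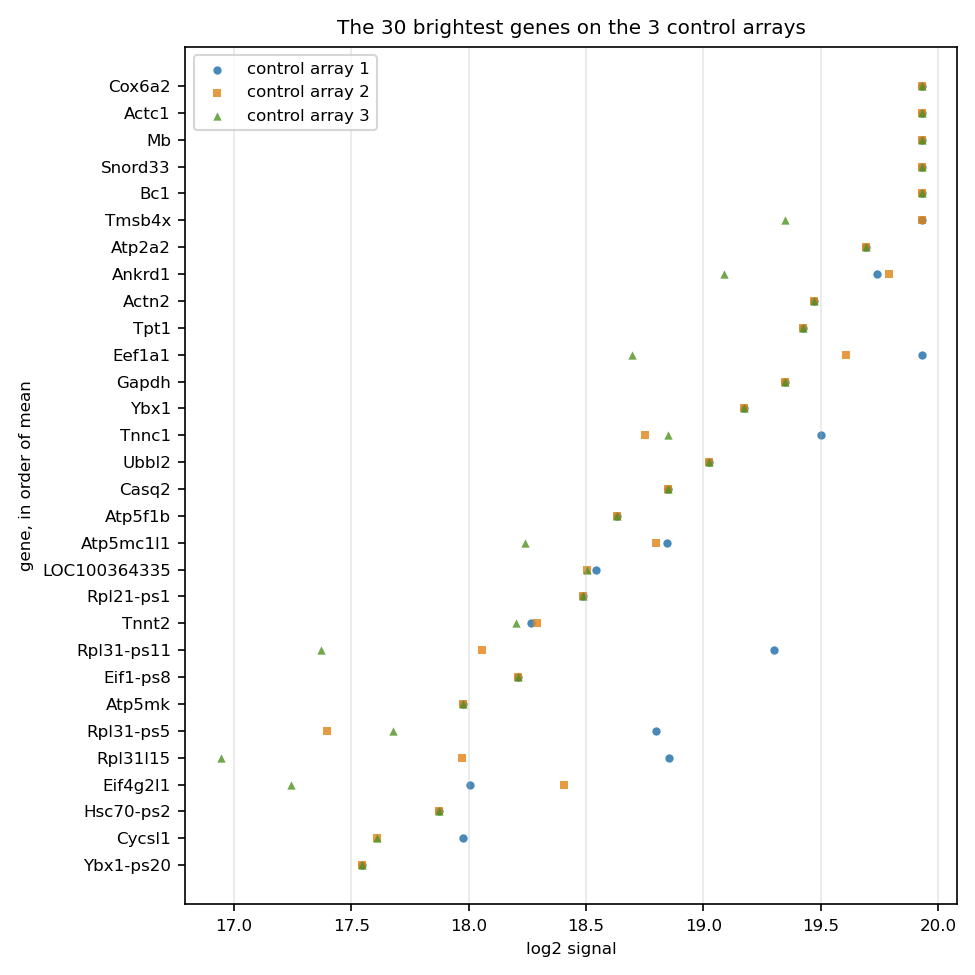
Log2 signal (horizontal axis) of the 30 brightest genes on each of the 3 control arrays, 1 symbol per array, in order of mean. For 18 genes the symbols coincide because the 3 arrays hold the same value, while Rpl31-ps11, Rpl31-ps5, Rpl31l15 and Eef1a1 spread with replicate 1 highest.

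The promoters of the brightest genes were looked at for motifs of muscle genes, using the 250 bases before each RefSeq transcript start, on both strands. The TATA sequence TATAAA stood in 12.3% of the 81 promoters found for the 100 brightest protein-coding genes and in 11.4% of the 15133 promoters of all protein-coding genes measured. The motif of MEF2, a transcription factor of muscle genes, stood in 6.17% and 2.44%, and the CArG box bound by serum response factor in 2.47% and 1.31%. Over the 6732 promoters of protein-coding genes above background the shares were 7.43%, 1.71% and 1.32%. Of 15 promoters of the brightest sarcomere and calcium family members, 0 held TATAAA, 3 the MEF2 motif and 0 the CArG box. The shares of the 100 brightest genes rest on 10, 5 and 2 promoters, and no test was made of any share. Mb and Actc1 are shown because they are the protein-coding genes at the highest value whose window lies outside the annotated gene (RefSeq, GRCr8). Capitals mark TATAAA, found 60 to 55 bases before the start of Mb. The Mb window is chr7:110647743-110647992 and the Actc1 window, in which no motif searched was found, is chr3:121271828-121272077, both on the minus strand.
Mb: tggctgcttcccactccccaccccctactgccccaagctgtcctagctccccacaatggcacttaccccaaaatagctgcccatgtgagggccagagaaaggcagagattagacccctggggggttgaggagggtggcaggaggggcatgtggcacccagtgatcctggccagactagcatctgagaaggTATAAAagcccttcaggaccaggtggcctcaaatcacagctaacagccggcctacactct
Actc1: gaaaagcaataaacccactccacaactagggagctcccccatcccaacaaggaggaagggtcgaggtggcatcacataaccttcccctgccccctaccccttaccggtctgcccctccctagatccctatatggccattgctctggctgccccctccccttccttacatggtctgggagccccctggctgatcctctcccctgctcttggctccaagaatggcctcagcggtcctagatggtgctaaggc

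Relative signal was then compared within 53 gene families of the heart. 187 of the 213 listed members were measured as single-symbol genes, and 117 of these were above background on all arrays, against 40.9% of all genes. In 48 of the 49 families with at least 2 measured members the same member was brightest on all 3 arrays, and in 46 the brightest member's lowest array lay above the highest array of the next. Only 1 member was above background in 16 families. Members whose probe sets carry several symbols, among them the myosin gene Myh6, were not analysed here.

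In the sarcomere the cardiac forms gave the highest signals and most skeletal muscle forms lay near background, though Myh13 and Myl1 did not. Among 12 myosin heavy chains, the motors of the thick filament, Myh7 gave 17.30, 17.34 and 16.69 (17.11 ± 0.36). The next was the non-muscle myosin Myh9 at 7.99 ± 0.10. It was followed by Myh13, a skeletal muscle form, at 7.77 on each array and the smooth muscle myosin Myh11 at 7.13 ± 0.21. Myh6, the main heavy chain of the adult rodent ventricle, is close to Myh7 in sequence, so the signal of Myh7 is uncertain as a measure of that gene alone. The skeletal muscle heavy chains Myh2, Myh1 and Myh4 gave 5.52 ± 0.18, 5.36 ± 0.30 and 5.05 ± 0.46, near the background limit, and the perinatal Myh8 gave 4.99 ± 0.13. Of the light chains, the ventricular Myl2 read 12.74 on each array and the ventricular Myl3 gave 11.25, 10.87 and 11.20 (11.11 ± 0.20). The atrial light chains Myl4 and Myl7 gave 5.24 and 5.19 ± 0.03, barely over the limit. The other 4 light chains measured ran from Myl12b at 6.73 to Myl12a at 7.59, among them the skeletal muscle Myl1 at 6.91 ± 0.08.

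The thin filament followed the same order. Troponin I, which holds the filament off in the resting state, was represented by the cardiac Tnni3 at 11.60, 11.39 and 11.25 (11.41 ± 0.18), while the slow skeletal Tnni1 and fast skeletal Tnni2 gave 4.87 ± 0.01 and 4.68 ± 0.10, both below background. Beside Tnnt2, the skeletal Tnnt1 and Tnnt3 gave 6.09 ± 0.29 and 5.38 ± 0.31, and beside Tnnc1 the fast skeletal Tnnc2 gave 4.80 ± 0.24. Among actins, the smooth muscle Acta2 gave 16.04, 16.04 and 15.92 (SD 0.07) and the cytoplasmic Actg1 gave 15.57 ± 0.25, both under Actc1. The cytoplasmic Actb gave 8.78 ± 0.09 and the enteric Actg2 6.34 ± 0.13. Actin genes are closely alike in sequence, which leaves their separate signals uncertain.

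Tropomyosin, the coiled coil along the thin filament, was the exception. Tpm4, known mainly as a non-muscle form, gave 11.93, 12.05 and 11.43 (11.80 ± 0.33), above Tpm1, the main cardiac form, at 10.27, 10.30 and 10.33 (10.30 ± 0.03). The arrays of these genes did not overlap. Tpm3 gave 7.60 ± 0.13 and Tpm2 6.09 ± 0.15. In the thick filament and Z-disc the cardiac forms again read highest. Cardiac myosin-binding protein C, Mybpc3, gave 14.01, 14.22 and 14.20 (14.14 ± 0.12), and its skeletal relatives Mybpc2 and Mybpc1 gave 5.02 ± 0.15 and 4.21 ± 0.05. Myoz2, the calcineurin-binding myozenin of heart and slow muscle, gave 15.53 ± 0.30 and the fast-muscle Myoz1 4.53, 4.28 and 4.70. Non-muscle Actn4 and Actn1 gave 10.72 ± 0.08 and 7.15 ± 0.10 beside Actn2, and fast-muscle Actn3 gave 4.96 ± 0.14. The filamins, which cross-link actin, lay close, with Flnc at 7.91, 8.19 and 8.43 and Flna at 7.66, 7.74 and 7.59.

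In the calcium cycle, each family with at least 2 measured members was led by 1 member whose arrays did not overlap the next. Against Atp2a2, the skeletal pump Atp2a1 gave 4.72 ± 0.32 and Atp2a3 read 4.60 on each array, both below background. Sarcolipin (Sln), a small inhibitor of the pump known from atrium, gave 4.70 ± 0.22, also below background. It was the only member of its family measured. Ryr2, the calcium release channel of heart, gave 15.19, 15.11 and 15.17 (15.16 ± 0.04), while Ryr3 read 4.93 on each array and the skeletal Ryr1 gave 4.40 ± 0.08. The skeletal calsequestrin Casq1 gave 6.64 ± 0.21, above background though far under Casq2. Cacna1c, the pore of the cardiac L-type channel, gave 10.81, 11.27 and 11.89 (11.32 ± 0.54), here with replicate 3 highest. The other 4 measured pores of L- and T-type channels, Cacna1s, Cacna1g, Cacna1h and Cacna1d, ran from 4.53 to 4.91, below background. Slc8a1, the sodium-calcium exchanger of heart, gave 9.07 ± 0.25 and its relatives Slc8a3 and Slc8a2 4.62 ± 0.01 and 4.01 ± 0.08. Jph2, which holds the calcium store against the cell membrane, gave 7.33 ± 0.07, above Jph1 at 5.49 ± 0.25 and Jph4 at 4.67 ± 0.02.

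Ion channels of the action potential and receptors of the autonomic nervous system were dimmer. Scn7a, a sodium-sensing channel relative, was the brightest measured sodium channel gene at 7.78, 7.40 and 6.94 (7.37 ± 0.42). The other 7 measured sodium channel genes ran from Scn9a at 4.06 to Scn3a at 5.54. The inward rectifiers Kcnj3 and Kcnj2 gave 6.23, 5.98 and 7.01 (6.40 ± 0.54) and 6.16, 5.42 and 6.14 (5.91 ± 0.42), and their arrays overlapped. Kcnj5, the partner of Kcnj3 in the acetylcholine-gated channel, gave 5.45 ± 0.13, and Kcnj11, the pore of the ATP-sensitive channel, gave 4.69 ± 0.01, below background. Among connexins, the proteins of gap junctions, Gjc1 gave 6.72 ± 0.28 and the atrial and conduction-system Gja5 gave 5.08 ± 0.03 at the limit. Of the pacemaker channels, Hcn2 gave 5.71 ± 0.07, Hcn4 4.92 ± 0.06 and Hcn3 3.69 ± 0.16, so only Hcn2 was above background on every array. Chrm2, the muscarinic receptor of heart, gave 7.26, 7.02 and 7.69 (7.32 ± 0.34), and the other 4 muscarinic receptors ran from 4.21 to 4.37. The adrenergic receptor Adrb1 gave 6.11 ± 0.24 and Adrb3 3.98 ± 0.18.

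The natriuretic peptides, hormones that the heart releases under stretch, were bright in this tissue. Nppa gave 13.24, 13.25 and 12.82 (13.11 ± 0.24) and Nppb gave 9.63, 9.58 and 9.33 (9.51 ± 0.16), while Nppc gave 4.42 ± 0.04. Nppa is abundant in atrium. Of the 7 other atrial markers, Kcnj3 (6.40 ± 0.54), Nr2f2 at 5.94, 5.61 and 5.77, Myl4 and Myl7 were above background, Gja5 and Sln were not, and Bmp10 gave 3.65, 3.67 and 3.77. The part of atrial tissue in the Nppa signal was not tested. The receptors Npr2, Npr3 and Npr1 gave 6.69 ± 0.10, 6.33 ± 0.31 and 6.00 ± 0.05, and the arrays of Npr2 and Npr3 overlapped.

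In energy metabolism the muscle form of each enzyme read highest in most families. Creatine kinase, which buffers ATP, was led by the mitochondrial Ckmt2 at 14.33 and the cytosolic Ckm at 14.01, each the same on all arrays, with Ckb at 6.74 ± 0.20. Ldhb, the lactate dehydrogenase form of heart, gave 15.88, 15.76 and 15.55 (15.73 ± 0.16), and Ldha gave 10.95 ± 0.17. Glycogen phosphorylase was led by the muscle form Pygm at 13.34 ± 0.08, over Pygb at 10.29, 9.75 and 9.97, and the liver form Pygl at 6.11 ± 0.11. Eno3 and Pgam2, the muscle forms of enolase and phosphoglycerate mutase, gave 10.96 ± 0.07 and 10.31 ± 0.30, against 7.13 ± 0.07 for Eno1 and 6.88 ± 0.14 for Pgam1. The insulin-responsive glucose transporter Slc2a4 gave 8.17 ± 0.10, the widespread Slc2a1 6.37 ± 0.10 and the liver form Slc2a2 3.99 ± 0.15. Hk2, the hexokinase of insulin-responsive tissue, gave 8.61 ± 0.38.

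Fatty acid and mitochondrial families showed the same order, with a few departures. Cpt1b, the muscle form of the enzyme that admits fatty acids to the mitochondrion, gave 10.17, 10.08 and 10.22 (10.16 ± 0.07), over the liver form Cpt1a at 6.40 on each array. Slc25a4, the ATP and ADP exchanger of muscle mitochondria, gave 17.14, 17.11 and 17.12 (17.12 ± 0.02), and the widespread Slc25a5 gave 11.05 ± 0.10. The muscle subunits Cox6a2 and Cox8b gave 19.93 on each array and 12.55 ± 0.13, and their widespread counterparts Cox6a1 and Cox8a gave 7.44 ± 0.21 and 6.09 ± 0.09. Fabp3, the fatty acid carrier of heart, gave 9.75, 9.75 and 9.64, and Fabp4, that of fat and capillary endothelium, gave 8.86, 8.67 and 9.78. On replicate 3 Fabp4 was above Fabp3, the only family in which the brightest member changed between arrays. Of the 4 kinases that shut pyruvate dehydrogenase, 2 varied between arrays, as Pdk4, induced by fasting, gave 15.89, 15.92 and 14.53 (15.44 ± 0.79) and Pdk2 gave 12.50, 13.19 and 14.05 (13.24 ± 0.77). Replicate 3 was the lowest for Pdk4 and the highest for Pdk2, while Pdk1 gave 8.53 ± 0.14 and Pdk3 5.48 ± 0.02. Ucp2, the widespread uncoupling protein, gave 8.67 ± 0.15 and the muscle Ucp3 6.51 ± 0.17.

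Regulators of metabolism and heart development ranged from bright to background. Ppargc1a, a coactivator that drives mitochondrial genes, gave 12.26, 12.46 and 12.57 (12.43 ± 0.16), while its partner Esrra gave 5.09, 5.15 and 4.97, on both sides of the limit. Pparg, known for fat cell differentiation, gave 7.28, 7.35 and 7.56 (7.40 ± 0.14), above Ppara, known for driving fatty acid oxidation genes, at 5.26, 5.15 and 5.26 (5.23 ± 0.07). Mef2a, a muscle transcription factor, gave 10.37, 10.51 and 10.80 (10.56 ± 0.22), followed by Mef2c at 8.49 ± 0.12 and Mef2d at 7.62 ± 0.13. Tbx20, a T-box factor of cardiomyocytes, gave 11.16, 11.35 and 11.64 (11.38 ± 0.24), and the chamber factor Tbx5 gave 5.53 ± 0.09. Gata6 gave 8.15 ± 0.07 and Gata4, its partner in heart development, 5.49 ± 0.04. Nkx2-5, the homeobox factor that marks the heart field, gave 5.22, 5.38 and 5.22, just over the limit, and Irx4, known as a ventricular gene, gave 4.22, 4.24 and 4.23, below it. The globins of the family list besides Mb were Cygb at 6.68 ± 0.03, the red cell Hbb at 6.35 ± 0.34 and Ngb at 4.25 ± 0.04. A gene outside that list and named after its values were seen, the beta-globin gene Hbbl1, gave 16.67, 16.48 and 15.56 (16.24 ± 0.59). Beta-globin genes are closely alike in sequence, which leaves their separate signals uncertain.

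**Figure D2:**
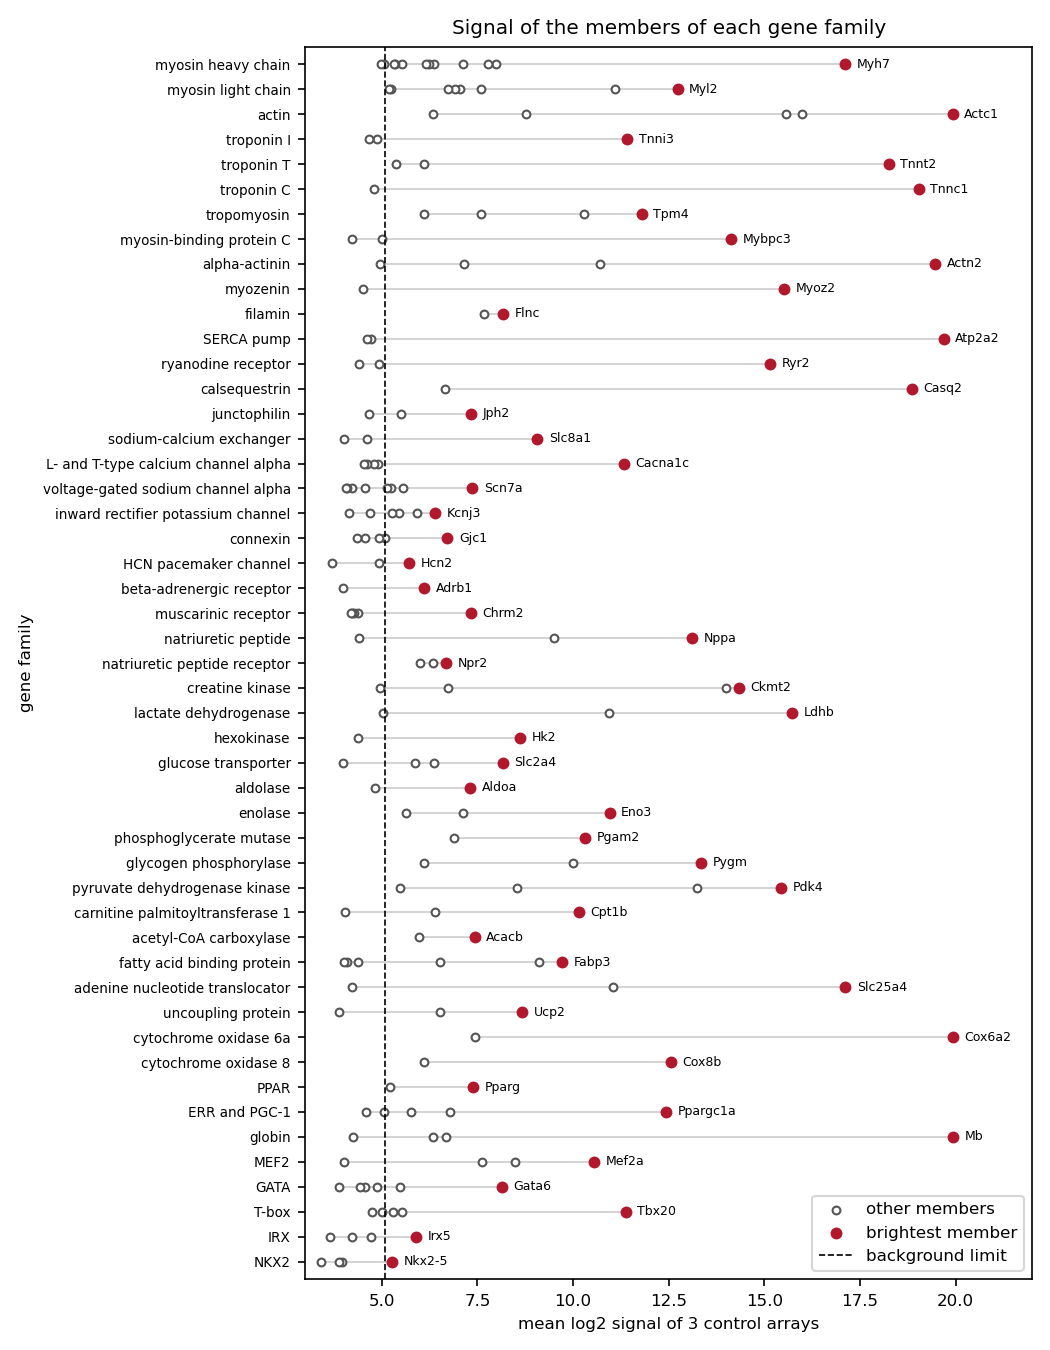
Mean log2 signal over the 3 control arrays (horizontal axis) of the measured members of 49 gene families, 1 row per family, with the brightest member filled and named and the other members open. The dashed line is the background limit of 5.08, and in 16 families the brightest member was the only one above background on all arrays.

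Markers of cardiomyocytes gave the highest signals of the cell type lists. All 10 measured cardiomyocyte markers were above background, with a median of 15.48 and a range of 11.11 to 19.93. Their median was 15.61, 15.34 and 15.50 on replicates 1, 2 and 3. The giant spring protein Ttn gave 16.04, 15.58 and 15.82 (15.81 ± 0.23). All 9 endothelial markers were above background with a median of 7.12, led by Kdr, the main VEGF receptor, at 11.56, 11.41 and 11.43 (11.47 ± 0.08). The junction protein Pecam1 gave 7.79, 6.59 and 6.97 (7.12 ± 0.61), the widest of that list. All 10 fibroblast markers were above background with a median of 7.08, led by the proteoglycan Dcn at 12.66, 12.28 and 12.16 (12.37 ± 0.26).

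Mural cell and macrophage lists had more members above background than the 40.9% of all genes. 6 of 7 smooth muscle markers and 4 of 6 pericyte markers were above background, with Rgs5, a regulator of G protein signalling in pericytes, at 16.48, 16.48 and 15.96 (16.31 ± 0.30). The potassium channel subunit Abcc9, found in pericytes and also in cardiomyocytes, gave 10.69, 10.70 and 10.67. 9 of 10 macrophage markers were above background with a median of 5.77, led by the mannose receptor Mrc1 at 7.59 ± 0.22. All 4 lymphatic markers were above background, with a median of 5.76 and Prox1, the master factor of lymphatic identity, at 6.11 ± 0.17. Of the endocardial markers 3 of 4 were above background.

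Lists of neutrophils, lymphocytes, lung and nerve had few or no members above background, and several other lists lay near the 40.9% of all genes, which says nothing particular of their members. 1 of 7 neutrophil markers was above it, S100a9, a calcium-binding protein of neutrophils, at 5.64, 5.65 and 5.60. Of T and NK cell markers 1 of 6 was above, Cd2 at 5.25 ± 0.02, and of B cell markers 0 of 4. The erythroid markers above background were 2 of 5, Alas2, the first enzyme of haem synthesis in red cells, at 7.25, 7.79 and 7.46, and Hbb. The list does not hold Hbbl1, whose mean of 16.24 is given above. No lung epithelium marker (0 of 6) and no Schwann cell or neuron marker (0 of 5) was above background. Of 6 liver markers 2 were above, Ttr at 5.44 ± 0.04 and Apoa1 at 5.19 ± 0.12, while albumin (Alb), chosen after its values were seen, gave 4.00, 4.16 and 4.00. Among skeletal muscle markers 4 of 8 were above, with Ckm, which the heart shares, far above the rest. Of adipocyte markers 2 of 7 were above, Fabp4 and Cfd, and the fat cell hormone Adipoq gave 4.07, 4.09 and 4.29. Among pacemaker and conduction markers 1 of 6 was above, Tbx3 at 5.29, 5.21 and 5.40, and 2 of 5 mesothelial and epicardial markers, with Wt1 at 5.67 ± 0.09. 5 of 8 atrial markers were above background. The Y-linked Eif2s3y, Ddx3y, Uty and Kdm5d were above background in these male rats, at 10.58 ± 0.72, 9.84 ± 0.48, 8.92 ± 0.23 and 6.56 ± 0.26, while Sry gave 4.97 ± 0.38. The value of Eif2s3y is that of the brighter of its 2 probe sets, and the other had a mean of 5.16, near the limit.

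**Figure D3:**
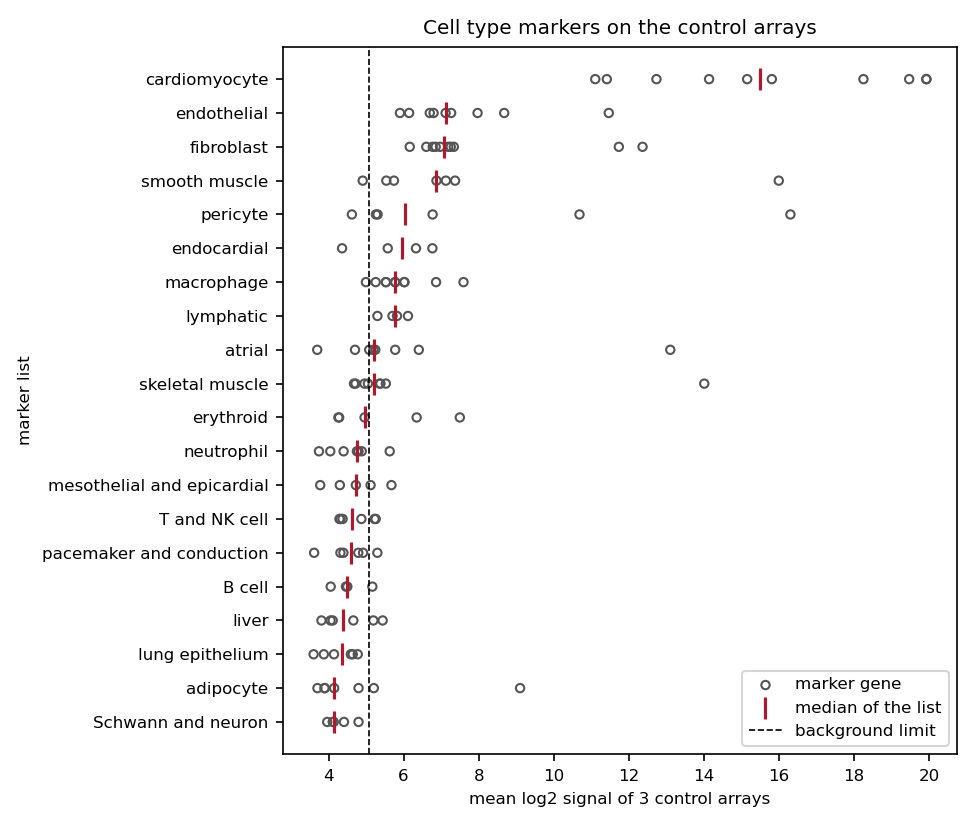
Mean log2 signal over the 3 control arrays (horizontal axis) of marker genes of 20 cell types or tissues, each circle a gene and each red bar the median of its list, in order of median. The cardiomyocyte median of 15.48 stands apart from the endothelial and fibroblast medians of 7.12 and 7.08, and lists of neutrophils, lymphocytes, lung, liver and nerve have medians left of the background limit at 5.08.

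All measured members of 7 lists of energy genes were above background, against 40.9% of all genes. They were 17 citrate cycle genes (median 10.16), 23 fatty acid oxidation genes (9.91), 15 glycolysis genes (10.31), 34 subunits of respiratory complex I (7.96), 9 of complex III (7.71), 10 of cytochrome oxidase (9.84) and 13 of ATP synthase (10.18), beside a median of 4.83 over all genes. Among measured energy genes outside these lists, the family members Hk3, Aldoc, Ldhc, Cox4i2, Cpt1c and Ckmt1 were not above background, with means from 4.03 to 5.02. In the citrate cycle list Mdh2, the mitochondrial malate dehydrogenase, gave 12.78, 12.78 and 12.80, and Idh2, a mitochondrial isocitrate dehydrogenase, gave 13.49, 13.54 and 13.99. The list also holds Mdh1, the cytosolic form that is no enzyme of the mitochondrial cycle, which read 15.21 on each array. In fatty acid oxidation Lpl, the lipase that frees fatty acids from lipoproteins, gave 17.30, 17.09 and 17.29 (17.23 ± 0.12). The fatty acid transporter Cd36 gave 14.93, 14.55 and 14.13 (14.54 ± 0.40). Atp5f1e, a small ATP synthase subunit, was the most variable of its list at 9.08, 7.58 and 8.01 (8.22 ± 0.77). Of 14 housekeeping genes 13 were above background, and 2 of the 14, Gapdh and Ywhaz, held the same value on all arrays. Of the others, B2m, the light chain of MHC class I, had the largest SD at 10.32, 9.72 and 8.62 (9.55 ± 0.86), and Sdha and Actb, picked out after their values were seen, had small SDs of 0.08 and 0.09.

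Lists of acute responses are read here against the 40.9% of all genes above background. Of 24 immediate early genes 18 were above background with a median of 5.96. Dusp1, a phosphatase of MAP kinases, gave 10.40, 9.60 and 9.96 (9.99 ± 0.40), and Klf4 gave 9.08, 8.98 and 9.28. Zfp36 and Egr1 varied most in that list, at 6.93, 5.80 and 6.15 (6.30 ± 0.58) and 5.35, 6.13 and 6.34 (5.94 ± 0.52). Replicate 1 was the highest for Zfp36 and the lowest for Egr1. Fos, named after its values were seen, gave 4.69, 4.97 and 5.13, around the limit. Of 17 acute inflammation genes 8 were above background with a median of 5.36, a share near that of all genes, with the inhibitor Nfkbia at 7.11, 7.31 and 7.34 and the chemokine Cxcl1 at 6.57, 6.96 and 6.92. Vcam1, an adhesion molecule of endothelium, gave 6.93, 6.36 and 5.76 (6.35 ± 0.59). Of 16 cardiac stress genes 12 were above background with a median of 8.23, led by Ankrd1, Myh7 and the metallothionein Mt1 at 16.38 ± 0.08. 14 of 16 circadian clock genes were above background, with Nr1d2 at 9.97, 10.04 and 9.15 (9.72 ± 0.49). 10 of 11 genes of the glucocorticoid and fasting list were above it, with Pdk4 the brightest.

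Hairpin genes of a list of microRNAs, most of them known from heart and muscle, were above background about as often as all genes. The list also holds microRNAs of other tissues, such as the liver Mir122. These probe sets read the hairpin genes, and the level of mature microRNA was not analysed here. Of 24 hairpin genes 9 were above background, a share of 37.5% beside 40.9% of all genes. Among the 370 microRNA genes measured the share was lower, at 22.2%. Mature sequences from RefSeq (GRCr8) are shown for members with a known muscle or matrix role, grouped by seed. The seeds of miR-208b and miR-499 differ from each other. Hairpins with the miR-1 seed differed in signal, as did those with the miR-133 seed, while Mir29a and Mir29c overlapped. The members outside the naming rule (Mir1, Mir206, Mir133b and Mir208b) were chosen after their values were seen. Capitals mark the seed, bases 2 to 8. The muscle microRNAs miR-1 and miR-206 share a seed, as do miR-133a and miR-133b, and the hairpins lie at chr18:2160327-2160413 for Mir1 and chr18:2157872-2157958 for Mir133a1, both in Mib1 on the minus strand.
rno-miR-1-3p: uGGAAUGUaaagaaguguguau
rno-miR-206-3p: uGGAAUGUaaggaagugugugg
rno-miR-133a-3p: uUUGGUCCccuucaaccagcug
rno-miR-133b-3p: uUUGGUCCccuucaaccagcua
rno-miR-208b-3p: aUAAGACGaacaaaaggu
rno-miR-499-5p: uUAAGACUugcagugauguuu
rno-miR-29a-3p: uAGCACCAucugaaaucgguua
rno-miR-29b-3p: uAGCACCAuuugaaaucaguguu
rno-miR-29c-3p: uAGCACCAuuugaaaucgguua

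Mir133a1 was the brightest of these hairpin genes at 7.05, 6.03 and 7.03 (6.70 ± 0.58), with replicate 2 below the others. Mir133b, with the same seed, gave 3.24, 3.69 and 3.23, below background on every array. Mir1 gave 5.11, 5.52 and 4.80 (5.15 ± 0.36), across the limit, and Mir206 gave 3.60, 3.60 and 3.56. Mir208b lies within Myh7, and it gave 4.28, 4.15 and 4.45 (4.29 ± 0.15), below background, beside 17.11 ± 0.36 for its host gene. Mir499a, within Myh7b, gave 4.27, 4.85 and 5.38, and Myh7b gave 6.31, 6.13 and 6.26 (6.23 ± 0.10). The Mir29 group, known for repressing collagen genes, was above background in all 3 members shown, with Mir29c at 6.62, 6.26 and 6.51 and Mir29a at 6.45, 6.29 and 6.32. Mir29b1 gave 5.30, 5.31 and 6.37, with replicate 3 alone high. Mir122, a liver microRNA, named here after its values were seen, gave 5.69, 5.76 and 6.22, in the same range as the Mir29 group.

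The arrays agreed closely for most genes and differed widely for a few. Over the 18727 genes with a spread the median SD was 0.11, and over the 4887 of these with a mean of at least 6 it was 0.14. The median SD rose with signal. It was 0.10 at a mean under 6, 0.14 at 6 to 10, 0.21 at 10 to 14 and 0.27 at 14 or more. An SD of at least 0.5 was found for 252 of the 4887, or 5.16%, and an SD of at least 1 for 27. Of the 252, replicate 1 was highest for 173 and replicate 3 lowest for 152. Ribosomal protein genes and their copies made up 61 of the 252 (24.2%), and 4.52% of the 4887. Over 221 such genes the median SD was 0.35, and replicate 1 was highest for 148 of them. What lies behind this was not tested. Without replicate 1, 227 genes had an SD of at least 0.5 over the other arrays.

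The 20 genes of largest SD included the mitochondrial COX1, COX2 and COX3, described below, and the rest were of several kinds. Igfbp7, a growth factor-binding protein of vessel walls, gave 16.65, 14.63 and 13.55 (14.94 ± 1.57). Sparc, a matrix glycoprotein, gave 16.65, 16.75 and 14.46 (15.95 ± 1.30), and Postn, the matrix protein periostin, gave 9.75, 8.95 and 7.56 (8.75 ± 1.11). All 3 were lowest on replicate 3. Tcap, the titin cap of the Z-disc, gave 9.95, 9.31 and 7.46 (8.91 ± 1.29), and S100a1, a calcium sensor that enhances SERCA activity, gave 9.54, 7.55 and 7.35 (8.15 ± 1.21). Gng5, a G protein gamma subunit, gave 14.33, 12.53 and 12.27 (13.04 ± 1.12). S100a1 and Gng5 were high on replicate 1 alone. The copies Cox7cl1 and Rpl11-ps6 were lowest on replicate 1, at 7.57, 10.02 and 9.22 and at 9.47, 11.78 and 10.40. The other genes of largest SD were LOC100365810, LOC100359876, Rps17l3, Hspa8-ps12, Rps12l5, Rps17l1, Rpl30-ps7, raga and Cylc2, with SDs from 1.08 to 1.58. The collagen gene Col1a1, named after its values were seen, gave 6.78, 6.78 and 6.77.

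**Figure D4:**
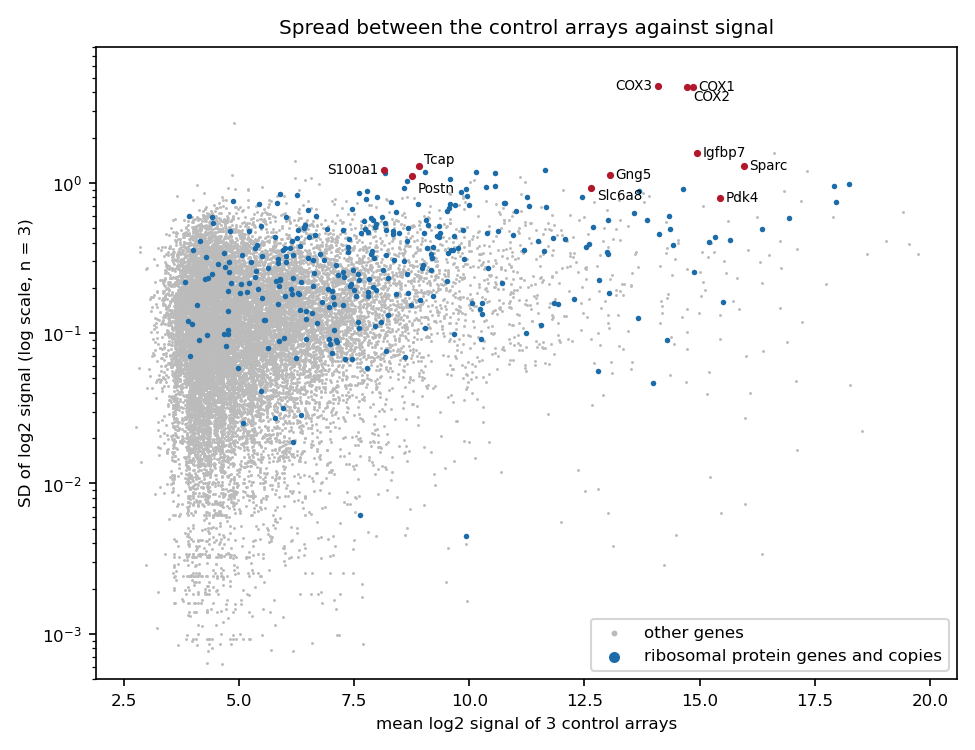
SD of log2 signal between the 3 control arrays (vertical axis, log scale) against mean log2 signal (horizontal axis) for the 18727 genes whose arrays were not all the same, with a few genes named in red. COX1, COX2 and COX3 stand above all other genes with SDs of 4.31, 4.31 and 4.42, and ribosomal protein genes and copies (blue, median SD 0.35 at a mean of at least 6) lie high in the cloud.

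Mitochondrial transcripts separated replicate 1 from the other arrays. COX1, COX2 and COX3, the mitochondrially encoded core subunits of cytochrome c oxidase, had the largest SDs of all genes with a mean of at least 6. COX1 gave 19.84, 12.25 and 12.49, COX2 gave 19.70, 11.99 and 12.52, and COX3 gave 19.18, 11.86 and 11.24 on replicates 1, 2 and 3. Replicates 2 and 3 thus lay close together, with replicate 1 far above both. The array holds 40 probe sets whose identifier has M in place of the chromosome number, these genes among them. 4 of these held the same value on all arrays, and of the other 36 replicate 1 was highest for 33. The median over all 40 was 13.35, 10.89 and 10.46 on replicates 1, 2 and 3. Over all 65403 probe sets, 10 lay at least 4 units higher on replicate 1 than on both others, and all 10 carried the M prefix, while none did so on replicate 2 or 3. Nuclear genes of the respiratory chain did not share this gap, since the complex I list had medians of 8.02, 7.75 and 7.84. What set replicate 1 apart was not tested.

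**Figure D5:**
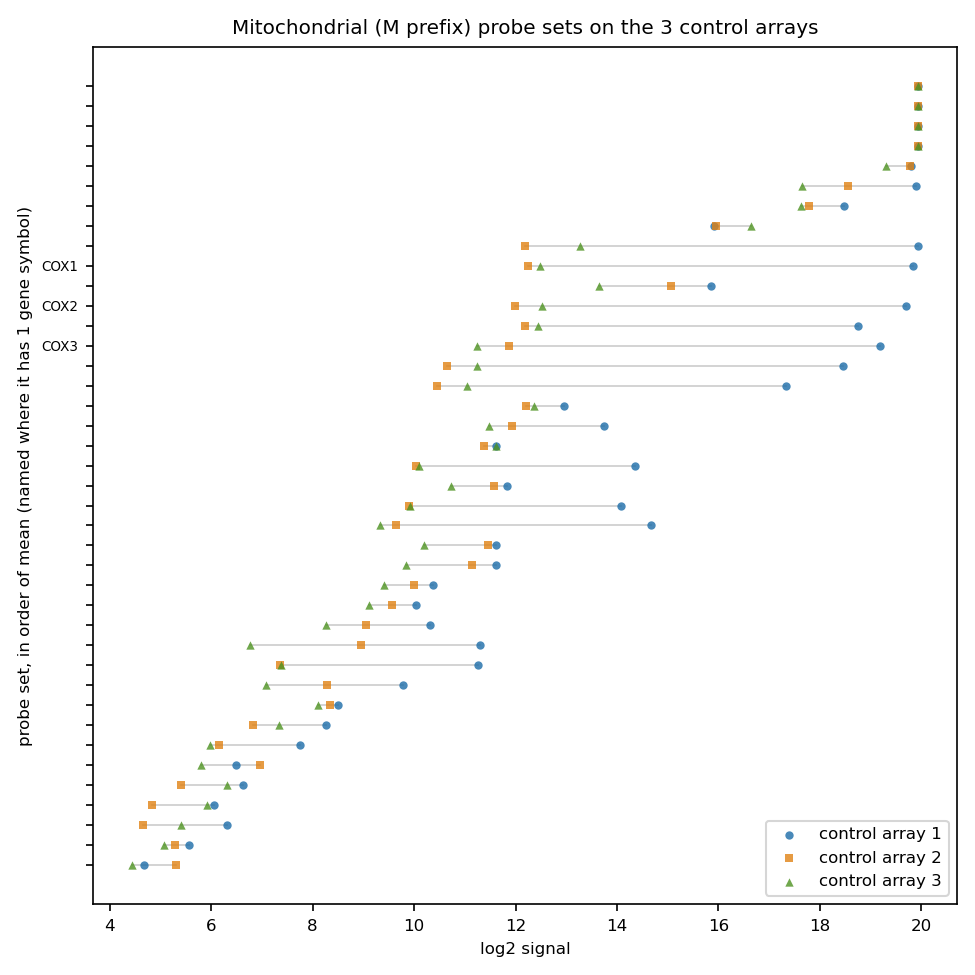
Log2 signal (horizontal axis) of the 40 probe sets with the M prefix on each control array, 1 row per probe set in order of mean, with the range as a grey line. Replicate 1 (blue circles) was the highest for 33 of the 36 probe sets that differed, by up to 7.35 log2 units over both other arrays.

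Signal also depended on which probe set read a gene. 977 genes had several single-symbol probe sets, and their brightest and dimmest sets differed by a median of 0.51. For the 510 of these genes whose brighter set was above background the median gap was larger, at 1.104. The median SD of 0.11 between arrays is no like measure, being an SD and not a range, and taken over more genes. Among all 977 genes the gap was at least 1 for 293 (30.0%) and at least 4 for 50. It was largest for Tmsb4x, whose sets had means of 19.74 and 8.06. For Atp5mk the sets had means of 17.98 and 7.83. Among the 100 brightest genes 13 had several probe sets, so a rank near the top rests on the brighter set in those cases.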

How the data were processed

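RNA of the cardiac left ventricle was hybridised by the authors to Affymetrix arrays, 3 of them from control rats, after TRIzol and RNeasy extraction and Ambion WT labelling. The authors applied robust multichip analysis (RMA, also named in the submitters' processing notes), and the deposited values are log2 signals per probe set. No source used here gives the software release or the filters. RMA corrects background, equalises arrays and summarises probes, so values depend on all arrays processed together. Scanner files were not used here.

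Of 65526 probe sets, 123 controls were left out. 22070 had 1 gene symbol, 478 several and 42855 none in the platform annotation. Each of 21013 genes was read by its probe set of highest mean, and 20887 matched RefSeq. A gene was above background if all 3 arrays exceeded the 95th percentile of the receptor genes. Genes named were the 30 brightest, family members, up to 5 brightest or most variable members of each list, and the 20 of largest SD with a mean of at least 6. Others are said to be chosen after their values were seen. The genes, families and lists were chosen with earlier results of these data known. Ranking and spread were tested on simulated data, where genes of large spread were recovered if their simulated mean stayed at 6 or more, and those that fell below it were lost to that filter. After a first run missed its target, the requirement was limited to genes that pass the filter. No column of another series was present (0 columns). Computations used Python 3.11.15, pandas 2.3.3 and numpy 2.4.6, and matplotlib 3.10.9 drew the figures. Alternatives were quantile normalization, centring on array medians, averaging a gene's probe sets, a 99th percentile limit, a limit on the mean, protein-coding genes alone, and leaving out each array. The number of arrays limits the precision.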

Additional observations from a re-analysis of the deposited data

How the results depend on the processing

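The 100 brightest genes shared 100 with the ranking after quantile normalization or centring. Centring leaves the mean of every gene unchanged, so its result was fixed in advance. The number shared was 91 when all probe sets of a gene were averaged, and 97 to 98 when 1 array was left out. Without genes identical on all arrays, an alternative chosen after seeing the data, 75 remained. This follows by construction, since 25 of the 100 brightest genes were identical on all arrays. The count of genes above background was 8590 after quantile normalization and 8530 after centring, 8672 to 8863 when 1 array was left out, 9116 by the mean of the arrays, and 6432 with the limit at the 99th percentile (5.54). The brightest member of a family changed in 0 of 49 families after quantile normalization, with probe sets averaged and without each array in turn. After centring it could not change, because the means stay the same. Families without overlap numbered 45 to 48 over all these settings. Genes with an SD of at least 0.5 numbered 227 to 341 when 1 array was left out and 264 after quantile normalization. They numbered 188 without ribosomal protein genes and genes with the M prefix. That setting was chosen after seeing the data and by construction only removes genes. Without replicate 1, 24 lists instead of 25 had a median above background, and without either other array 25 did. The count of genes whose probe sets differed by at least 1 was 295 to 305 when 1 array was left out, and it moved from 293 to 104 when, also as a later choice, only probe sets above background were compared, which by construction covers fewer genes. Of 545 single genes, Tmsb4x moved most when probe sets were averaged, from 19.74 to 13.90, and COX3 moved most when an array was left out, from 14.09 to 11.55 without replicate 1. Without replicate 1 the mean of COX1 was 12.37 and that of COX2 12.25. No paired analysis was possible because 1 group was described and no result came from a test. The 3 arrays, the values shared between arrays and the ceiling of 19.93 limit what can be said of the brightest genes.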

Other observations

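Noncoding genes of the control ventricle differed by class. Of 1432 long noncoding RNA genes 49 (3.42%) were above background, of 370 microRNA genes 82 (22.2%), and of 813 pseudogenes 416 (51.2%), beside 43.8% of 18206 protein-coding genes. Of 6 small nucleolar RNA genes 4 were above background, with Snord33 the brightest. Snord22, another gene of this class, gave 18.03, 17.02 and 16.56 (17.20 ± 0.75), with replicate 1 highest, and was chosen after its values were seen.

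Some bright genes were nearly the same on every array. Hadha, a subunit of the mitochondrial trifunctional protein, gave 13.12, 13.12 and 13.12, of which replicates 2 and 3 held exactly the same value, and the RNA-binding protein Fxr1 gave 15.24, 15.23 and 15.22. Both were chosen after their values were seen, from the genes of smallest SD with a mean of at least 10.

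Probe sets outside the gene ranking also carried signal. Of the 42855 probe sets with no symbol 8283 (19.3%) were above background, with a median of 4.41, and 142 were at 19 or more on all 3 arrays, 5 of them with the M prefix. Of the 478 probe sets with several symbols 172 (36.0%) were above background and 2 were at 19 or more on all arrays. None of these was named.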
